A study of Mus musculus with 8 samples.

Results

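Kidney DNA methylation after ischemia with 1 month of reperfusion was compared with that after sham surgery, in 1 library each out of the 8 libraries and 6 groups of the series. CpG positions on the 19 autosomes were kept where both libraries held at least 10 reads, which left 1147288 of the 1713771 positions present in either library. They formed 112774 windows of 1000 bp with at least 3 positions. All libraries came from cortex and outer medulla of wild type, male C57BL/6J mice. In the ischemia group (IR_1month) the vessels of both kidneys were clamped at the pedicle for 25 minutes, and reperfusion lasted 1 month. Its control (sham_IR) had the operation without clamping, and its label gives no time between surgery and collection. A further sham library, made for the ureter obstruction series (sham_UUO), was used to check directions. The other libraries were 1 from ischemia with 1 week of reperfusion (IR_1week), 2 after 7 days of unilateral ureter obstruction (UUO) and 2 from obstructed mice given the DNA methylation inhibitor 5-azacytidine at 1 mg/kg/day (UUO_5AZA). The labels do not say how many mice stand behind a library. With 1 library a group no difference here has a replicate check, and every p-value compares these libraries and not the conditions. The DNA came from whole tissue, so a change in the mix of cells and a change within cells cannot be told apart.

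Methylation of cytosine at CpG dinucleotides is a mark that is copied at cell division by maintenance methyltransferases, and it can be lost by dilution or through TET enzymes. CpG-rich promoters of most genes are free of it in all tissues, while promoters of many germ line genes are methylated and silent in somatic organs such as the kidney. Injury by ischemia kills tubule cells, and regrowth of the tubule, leukocyte entry and fibroblast expansion follow, each of which brings cells with their own methylation pattern.

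Methylation was measured by reduced representation bisulfite sequencing, which reads CpG-rich fragments cut by the enzyme MspI. The level of a position is the percentage of its reads that were methylated. Reads over CpG positions numbered 86411736 in IR_1month and 59202787 in sham_IR, against 57853745 to 86411736 over the 8 libraries, and the median depth per position was 45 and 33 reads. The fragments were filled in with methylated cytosine, so a CpG at a fragment edge can read as methylated whatever the tissue held. Positions were called edges where read depth jumped to a neighbouring CpG, or where a well-read neighbour within 250 bp was missing on a side. Edges so defined made up 59.9% of the positions, with a mean level of 63.87% in IR_1month and 64.07% in sham_IR. They thus include isolated CpG positions, and their level does not measure the fill-in alone. The 459817 positions inside fragments, called inner positions here, averaged 23.32% and 23.0%.

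The 2 libraries had almost the same mean level, and where they differed it was in windows of intermediate methylation. Over all positions the mean was 47.62% in IR_1month and 47.61% in sham_IR, a difference of 0.01 percentage points, and 11 of the 19 autosomes were higher in IR_1month. Over inner positions IR_1month was 0.32 points higher, and higher on 19 of 19 autosomes, by 0.18 to 0.43 points. Autosomes of 1 library are not replicates. Against sham_UUO, over the 438528 inner positions read in all 3 libraries, IR_1month was lower, with 23.09% against 23.68%, and sham_IR was at 22.77%. IR_1month thus lay between the shams inside fragments.

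Inside fragments the difference grew from both ends of the scale to the middle. Windows fell into 5 classes by their UUO mean, which neither side of the comparison enters. In the 2856 windows at 30 to 70%, the mean was 47.79% in IR_1month, 44.89% in sham_IR and 45.28% in IR_1week. IR_1month was 2.89 points above sham_IR there, and 21.3% of the windows were at least 10 points higher against 7.14% at least 10 points lower. In the 1824 windows at 10 to 30% the means were 15.75% and 14.21%, a difference of 1.54 points. In the 19203 windows below 10% they were 1.42% and 1.31%, and in the 5269 windows at 90% or more 93.33% and 93.35%. With sham_UUO as the control, over nearly the same windows, the 30 to 70% class was at 47.73% in IR_1month and 47.42% in sham_UUO, a difference of 0.32 points. The class below 10% was then 0.78 points lower in IR_1month. The higher middle class therefore held against sham_IR and shrank to near 0 against the other sham. These class means were not tested.

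**Figure D1:**
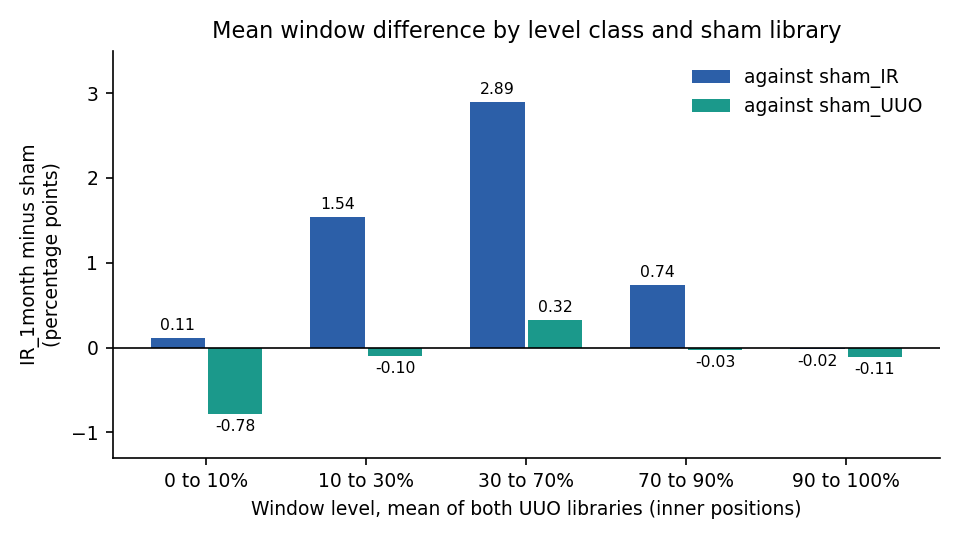
Mean difference of IR_1month from each sham library, in percentage points, over inner positions, for windows grouped by their mean level in both UUO libraries. Bars are 1 library against 1 library and carry no error. The blue bar of the 30 to 70% class stands at 2.89 points and the green bar beside it at 0.32.

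Window by window, the thresholds were an adjusted p under 0.01 (two-sided Fisher's exact test with Benjamini-Hochberg adjustment) and 25 points. They were passed by 50 of the 112774 windows, 0.0443%, of which 28 were higher (0.0248%) and 22 lower (0.0195%) in IR_1month. Without a minimum size 664 windows passed, 0.589%, with 435 higher (0.386%) and 229 lower (0.203%). Reads are summed over the positions of a window, so a read that covers several CpG positions counts at each. With the reads of each window divided by its number of positions no window passed, and 275 of the 112774 had an unadjusted p below 0.05, against 11367 with summed reads. With fragment edges left out 68 of 37084 windows passed, 0.183%, with 51 higher (0.138%) and 17 lower (0.0458%). Of the 50 windows 18 had 3 inner positions, and those 18 were among the 68.

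Pairs of libraries within 1 group gave counts on both sides of the 50. By the same thresholds over all positions, the UUO pair gave 26 windows (0.0264%), the UUO_5AZA pair 62 (0.0584%) and the pair of shams 71 (0.0661%). IR_1week against sham_IR gave 45 (0.0395%) and IR_1month against sham_UUO 81 (0.0757%), with 26 higher and 55 lower. With edges left out the counts were 32 (0.0946%), 52 (0.147%), 56 (0.154%), 44 (0.118%) and 63 (0.173%) in the same order, and the 68 of IR_1month against sham_IR stood above each of them. The shams come from different operations, which their count includes. In the UUO_5AZA pair 45 of the 52 windows were higher in library 1, so a pair of 1 group can be as one-sided as the ischemia comparison. A quasi-binomial model over all 8 libraries (limma), which takes the spread from the UUO and UUO_5AZA pairs, called 0 of 91942 windows at thresholds of 0.05 on the adjusted p and 10 points, and 4223 had an unadjusted p below 0.05. A first fit of that model, with an offset of 0.5 methylated reads in the pair means, called 7, and edgeR on the same windows called 153, 86 higher and 67 lower.

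**Figure D2:**
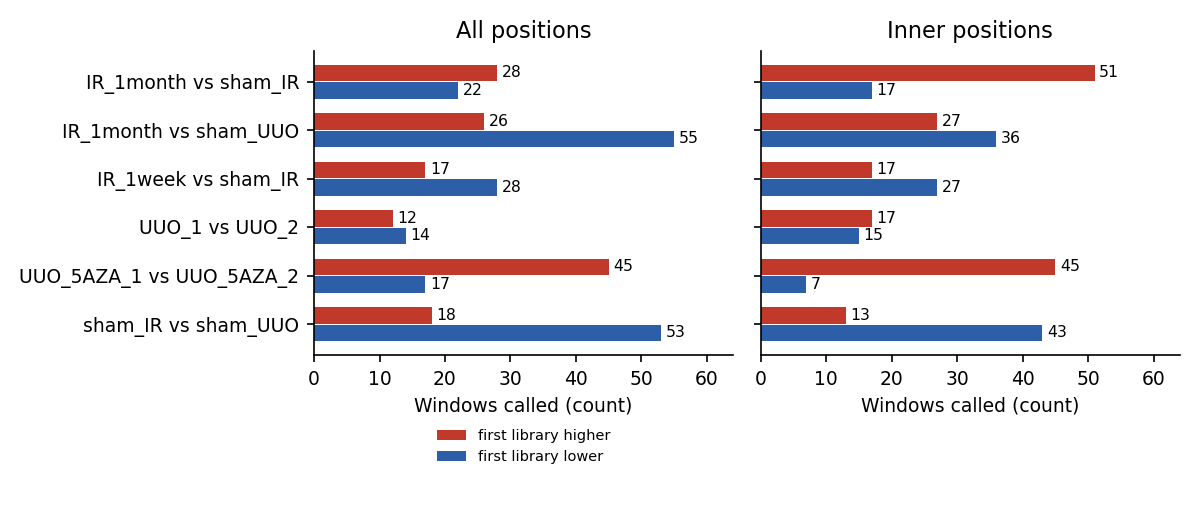
Number of windows past both thresholds of the Fisher test in 6 pairs of libraries, over all positions (left) and inner positions (right). Red bars count windows higher in the library named first and blue bars windows lower in it. With all positions the 28 and 22 of IR_1month against sham_IR lie within the range of the other pairs.

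Against sham_UUO, of the 50 called windows 33 had the same direction, 4 the opposite direction and 13 too few shared positions for the check, which asked for 3 positions with 10 reads in all 3 libraries. All 4 opposite ones were rises. This minimum was set after a look that took any read of sham_UUO, by which 44 of the 50 had the same direction, 22 of the 28 rises and 22 of the 22 falls. Both comparisons use the same IR_1month library, and the windows were picked on its values, so a shared direction is no independent evidence. Of the 18 rises with values in all 8 libraries, sham_IR was the lowest of the 8 in 13 and IR_1month the highest in 6. Of the 18 falls, sham_IR was the highest in 13 and IR_1month the lowest in 12. Among all windows tested that were higher in IR_1month, sham_IR was the lowest of the 8 in 24.8% and IR_1month the highest in 15.2%. Among those lower in IR_1month, sham_IR was the highest in 20.6% and IR_1month the lowest in 22.3%.

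On average the 28 rises were at 79.6% in IR_1month and 47.5% in sham_IR, and the 22 falls at 50.3% and 79.5%. In the 24 rises with levels in both further libraries the means were 79.3% in IR_1month, 48.9% in sham_IR, 68.3% in sham_UUO and 65.5% in IR_1week. In the 19 such falls they were 48.5%, 77.4%, 71.6% and 58.6% in the same order. IR_1week lay between IR_1month and sham_IR in 21 of the 28 rises and 17 of the 22 falls. The rise on chromosome 12 from 74894001 had only 29 reads of IR_1week and was given no level. Windows were picked for a wide gap between IR_1month and sham_IR, so a further library tends to fall inside it. The means of sham_UUO lay inside it too, and IR_1week shares the sham_IR library with the comparison. These counts are therefore no evidence of a course over time. The rises and the falls each lay on 12 chromosomes, and most held few positions, with 3 to 5 in 22 rises and 17 falls. Every position moved in the direction of its window in 14 rises and 15 falls. The windows were called on the summed reads of these same positions, and neighbours can share reads, so this is no separate evidence. At the threshold, the smallest called rise was 25.18 points, on chromosome 1 from 191714001 (mm9), and the nearest window below it was at 24.97 points, on chromosome 2 from 34477001.

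The window with the most measured CpG positions among the falls lay on chromosome 13 from 120276001 to 120277000 (mm9), 191 bp from the start of 3110070M22Rik, a gene known by a clone name. Its level was 33.04% in IR_1month (95% exact binomial interval 30.29 to 35.87, 1123 reads), 58.29% in sham_IR (54.04 to 62.45, 549 reads) and 39.89% in sham_UUO, with an adjusted p of 8.31e-19 in Fisher's exact test. IR_1week was at 26.85%, the UUO libraries at 33.31% and 36.59%, and the UUO_5AZA libraries at 35.53% and 32.04%. Sham_IR was thus the highest of the 8 libraries.

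Position by position the window showed how edges and inner positions differ. Its 5 edge positions read 66.3% to 87.3% in IR_1month and 77.8% to 94.7% in sham_IR. Its 8 inner positions read 3.6% to 9.4% in IR_1month, 27.8% to 38.5% in sham_IR and 17.6% to 25.0% in sham_UUO. At each of the 8 inner positions sham_UUO lay between the other 2 libraries. The window was picked for the gap between IR_1month and sham_IR. Many of its inner positions lie so close that the same reads can cover them, so they do not count as 8 separate measurements. With edges left out the window was at 5.91% in IR_1month and 34.85% in sham_IR.

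Of the rises, the CpG-richest was on chromosome 7 from 25919001 to 25920000, with 13 positions and no located gene start within 5000 bp. It was at 55.68% in IR_1month (51.36 to 59.93, 537 reads), 24.54% in sham_IR (18.95 to 30.83, 216 reads) and 38.01% in sham_UUO, with an adjusted p of 1.57e-11 in Fisher's exact test. At 6 neighbouring positions from 25919866 to 25919907 no read of sham_IR was methylated, 4 of them inner positions and 2 edges. With 19 or 20 reads per position, a count of 0 allows a level of up to 15.8% or 15.0%. IR_1month read 29.3% to 63.8% at these positions on 57 or 58 reads, and sham_UUO 6.7% to 35.3% on 15 or 17 reads. The positions lie so close that the same reads can cover them, so they do not count as 6 separate measurements.

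**Figure D3:**
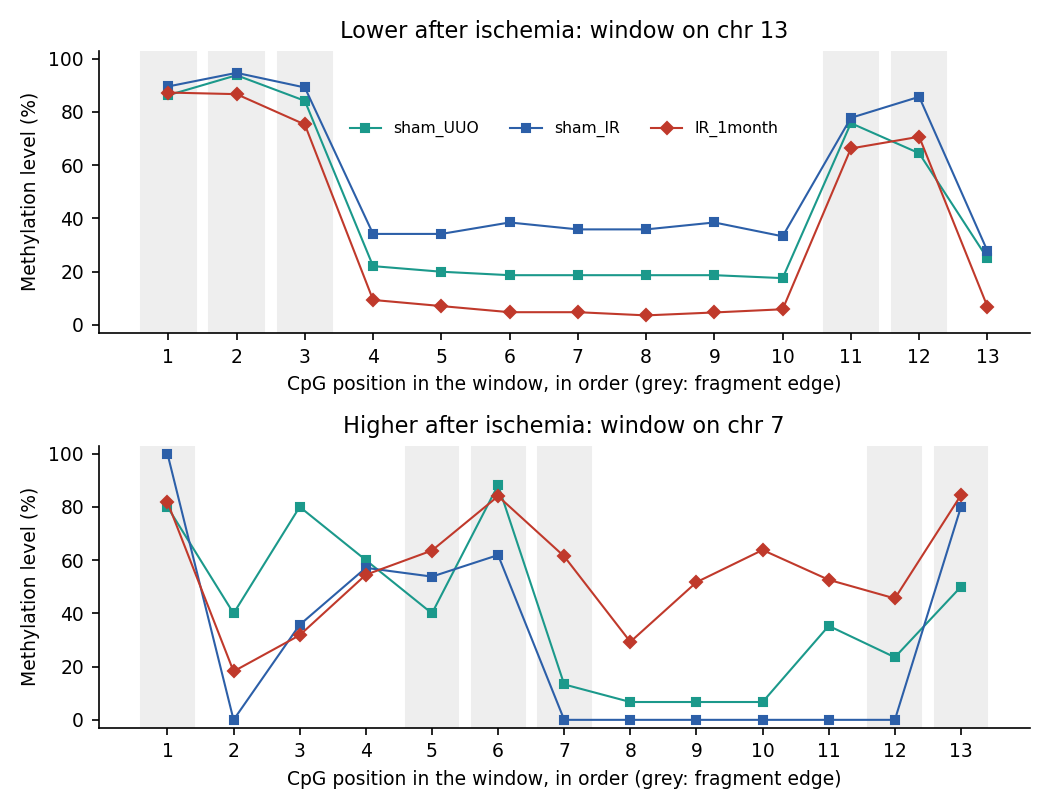
Methylation level in percent of each CpG position, in order along the window, in the 13-position windows on chromosomes 13 (top) and 7 (bottom), for 3 single libraries. Grey bands mark fragment edges. In the top panel the inner positions of sham_IR sit at 27.8% to 38.5% and those of IR_1month at 3.6% to 9.4%, while the edges are high in all 3 libraries.

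The largest rise that the sham_UUO check upheld was on chromosome 5 from 123820001, with 84.3% in IR_1month on 121 reads and 44.19% in sham_IR on 86 reads. There sham_UUO was at 80.32% and IR_1week at 78.26%, and sham_IR was the lowest of the 8, with the next at 66.67%. The window held edge positions alone. On chromosome 12 from 45818001, IR_1month was at 92.96%, sham_IR at 66.11% and sham_UUO at 91.28%, and UUO library 1 was low as well, at 69.62%. A different pattern was found on chromosome 5 from 150495001, where both shams were low, with 42.28% in sham_IR and 45.56% in sham_UUO against 74.49% in IR_1month. Here IR_1week was low as well, at 36.36%, and the UUO libraries were high, at 76.97% and 78.36%, and again every position was an edge. On chromosome 4 from 115645001, with 49.04% in IR_1month, 22.31% in sham_IR and 29.31% in sham_UUO, the ischemia and obstruction libraries were all above both shams, with 54.65% in IR_1week and 45.83% and 56.1% in UUO. The other named rises, on chromosomes 14, 3, 13 and 12, lay between 25.8 and 35.25 points.

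Among the falls, several were low in IR_1month against both shams. The largest was on chromosome 12 from 77964001, with 33.9% in IR_1month (25.44 to 43.19, 118 reads), 72.84% in sham_IR (61.81 to 82.13, 81 reads) and 77.55% in sham_UUO on 49 reads (adjusted p = 5.32e-05, Fisher's exact test). IR_1week was at 54.22% and the UUO libraries at 60.38% and 76.39%. This window and the next held edge positions alone, and so did the named falls on chromosome 4 from 133263001, on chromosome 2 from 30729001 and on chromosome 11 from 118818001, and the named rise on chromosome 3 from 84208001. On chromosome 18 from 67602001 IR_1month alone was low, at 53.85% on 65 reads, while the other 7 libraries were at 73.08% or more. On chromosome 15 from 79255001, 912 bp from the start of Gm16059, a predicted gene, IR_1month was at 67.99%, IR_1week at 49.21%, sham_IR at 95.73% and sham_UUO at 99.04%, and UUO at 82.76% and 86.97%. Both ischemia libraries were thus the lowest of the 8 in that window. In the fall on chromosome 7 from 16792001 the 6 libraries from injured kidneys were at 51.29% (IR_1month) to 63.78%, and the shams at 78.99% and 77.49%. Its difference of -27.7 points came to -17.92 with positions weighted equally. With each position thinned to equal depth, in 1 random draw, it came to -10.08 (adjusted p = 0.898, Fisher's exact test). The cause of these smaller differences was not tested. Against sham_UUO the difference was -26.2 points, and the 2 inner positions were at 16.98% in IR_1month and 56.41% in sham_IR. The other named falls, on chromosomes 4, 11, 17 and 2, lay between -34.78 and -26.22 points.

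**Figure D4:**
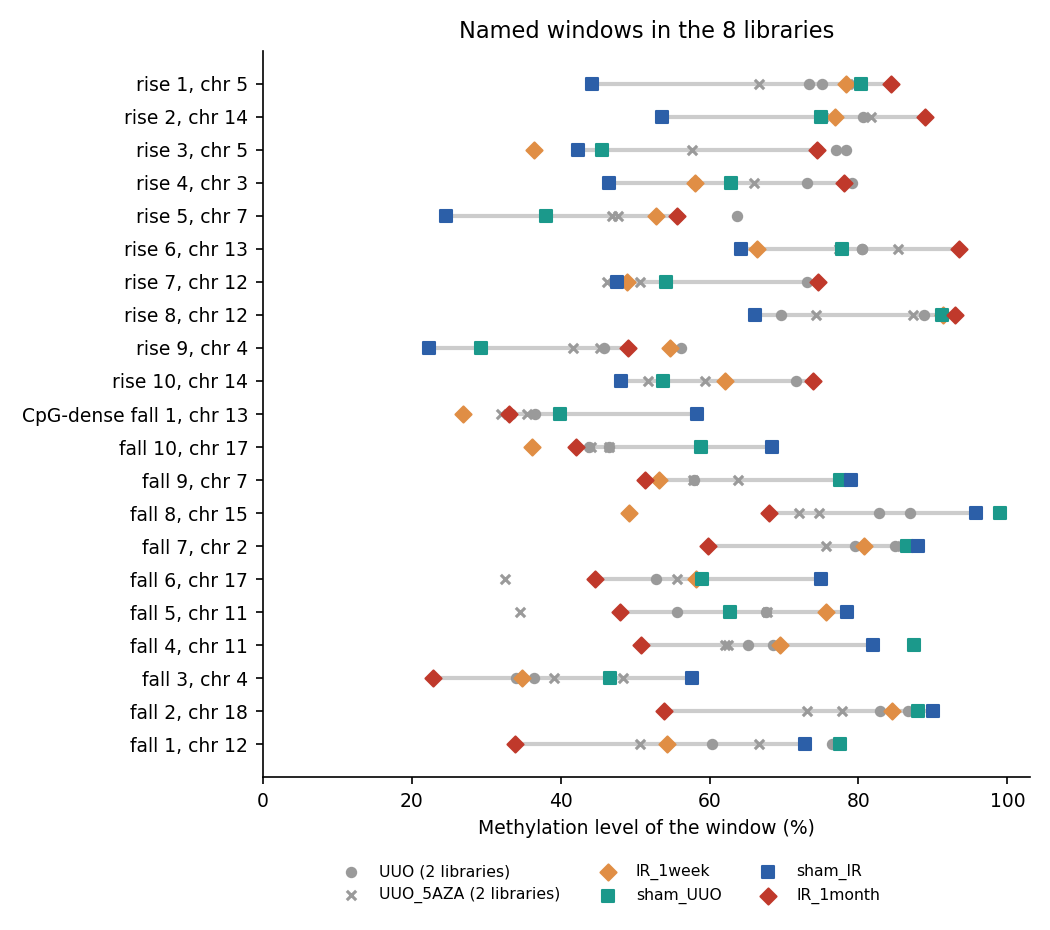
Methylation level in percent of the 21 named windows (rows) in each of the 8 libraries (points), with a grey line from sham_IR to IR_1month. Rows are ordered by the difference between IR_1month and sham_IR. In rise 1, on chromosome 5, sham_IR at 44.19% lies apart from the other 7 libraries, and in fall 2, on chromosome 18, IR_1month at 53.85% does.

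The largest differences of all could not be checked against sham_UUO at its depth. On chromosome 8 from 113047001 IR_1month was at 92.86% on 140 reads and sham_IR at 30.67% on 75 reads, a difference of 62.19 points. The 35 reads of sham_UUO there, with fewer than 10 at each position, gave 94.29%, above IR_1month. On chromosome 17 from 26191001 the levels were 80.3% and 19.05%, on 66 and 42 reads. Close to located gene starts were also windows at Dst, which encodes the cytoskeletal linker dystonin (84.09% against 46.03%, 3440 bp away), Tcf7l2, a transcription factor of the Wnt pathway (62.67% against 36.3%, 2701 bp, with 66.3% on 92 reads in sham_UUO, above IR_1month), and Tgm1, a transglutaminase of epithelia (78.95% against 53.14%, 329 bp). Of these, Tgm1 alone had enough shared positions for the check, at 7.69 points above sham_UUO. These windows were chosen for description after their values were seen.

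At single positions, where a read counts once, 71 of 1147288 passed the same thresholds, 0.00619%, with 43 higher (0.00375%) and 28 lower (0.00244%) in IR_1month. Of these 71 positions 51 were edges and 20 inner positions, while edges made up 59.9% of all positions tested. The count was 28 (0.00243%) for IR_1week against sham_IR, 11 (0.00106%) in the UUO pair, 35 (0.00319%) in the UUO_5AZA pair and 304 (0.028%) between the shams. Against sham_UUO, 35 of the 37 rises and 23 of the 24 falls that could be checked had the same direction, again with the same IR_1month library on both sides. Near gene starts, an inner position 66 bp from the start of Papolb, which encodes a testis poly(A) polymerase, was at 51.3% in IR_1month on 39 reads and at 0.0% in sham_IR on 27 reads, where a count of 0 allows up to 11.1%. Papolb was at 48.8% in sham_UUO and 51.4% in IR_1week, so sham_IR again was the library that differed. An edge position 115 bp from the start of Fer, which encodes a tyrosine kinase, read 85.6% against 40.0%, with 74.4% in sham_UUO. An inner position 107 bp from the start of 4930589L23Rik read 14.4% against 47.9%, with 49.5% in sham_UUO and 24.5% in IR_1week, and there both shams were above both ischemia libraries. An edge position 405 bp from the start of Ppm1e, a protein phosphatase, read 68.6% against 97.0%, with 76.8% in sham_UUO and 67.5% in IR_1week. These positions were also chosen after their values were seen.

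Promoters were compared next, as the stretch from 250 bases before to 50 bases after a gene start. The files carry no gene names, and the RefSeq promoter sequences at hand are of build GRCm38.p6, so promoters were located in the mm9 files by the spacing of their CpG dinucleotides. Of 32851 promoters, 15982 held at least 8 CpG and 7765 were placed, and 7532 of 6731 genes had values in both libraries. The sequences of 4 promoters that rose are shown because their differences are described next. They are the 250 bases before the start, from RefSeq GRCm38.p6, 5′ to 3′ on the gene's strand, with each CG in capitals. In mm9 they were placed, each on the minus strand, at chr13:120277192-120277441, chr11:97361655-97361904, chr11:4341086-4341335 and chr13:113442519-113442768.
3110070M22Rik: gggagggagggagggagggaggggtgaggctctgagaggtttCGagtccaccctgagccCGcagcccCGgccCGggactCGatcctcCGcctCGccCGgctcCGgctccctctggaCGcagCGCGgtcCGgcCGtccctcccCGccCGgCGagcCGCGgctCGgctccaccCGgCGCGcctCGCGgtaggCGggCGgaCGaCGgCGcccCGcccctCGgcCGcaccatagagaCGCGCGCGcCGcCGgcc
4933428G20Rik: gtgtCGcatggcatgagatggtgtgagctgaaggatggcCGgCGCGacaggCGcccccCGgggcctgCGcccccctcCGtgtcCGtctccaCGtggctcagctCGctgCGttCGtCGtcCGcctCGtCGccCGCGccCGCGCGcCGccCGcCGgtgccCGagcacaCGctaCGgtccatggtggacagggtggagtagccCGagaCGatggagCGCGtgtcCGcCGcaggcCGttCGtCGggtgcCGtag
Hormad2: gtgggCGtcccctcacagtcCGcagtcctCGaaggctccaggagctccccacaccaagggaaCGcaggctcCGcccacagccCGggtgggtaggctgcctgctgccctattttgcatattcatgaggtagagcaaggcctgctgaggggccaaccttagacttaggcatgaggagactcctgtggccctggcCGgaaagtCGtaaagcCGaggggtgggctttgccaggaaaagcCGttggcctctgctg
Ddx4: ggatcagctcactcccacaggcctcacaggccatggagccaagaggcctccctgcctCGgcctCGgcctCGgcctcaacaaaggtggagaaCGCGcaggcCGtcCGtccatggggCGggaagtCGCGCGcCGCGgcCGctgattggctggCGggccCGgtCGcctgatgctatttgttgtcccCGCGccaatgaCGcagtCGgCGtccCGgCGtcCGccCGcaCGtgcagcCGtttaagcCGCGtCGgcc
In this order they hold 39, 38, 10 and 31 CG in the printed stretch, far fewer in Hormad2 than in the others. The compared stretch also held the 50 bases after the start, and not every printed CG was compared. In 3110070M22Rik 26 positions were compared over the whole stretch, against 39 CG printed.

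Promoters were almost all unmethylated in both libraries. Of the 7089 promoters with at least 3 inner positions, 6970 were below 10% in sham_IR, 98.3%, and 6950 were below 10% in both. The median inner level was 0.67% in IR_1month and 0.6% in sham_IR, and the median difference was 0.02 points, with the 5th and 95th percentiles at -1.57 and 1.74. Over all positions, of the 7532 promoters none differed by 25 points and 16 by 10 points. With distance from a located start the inner level rose from 1.41% in IR_1month within 250 bp to 31.86% at 2000 to 5000 bp, and the difference from sham_IR from 0.07 to 0.74 points. Against sham_UUO the differences there were -0.85 and -0.45 points.

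Of the 7532 promoters 11, 0.146%, had an adjusted p below 0.01 in Fisher's exact test, 5 higher (0.0664%) and 6 lower (0.0797%) in IR_1month. All 11 are named here. With reads divided by the number of positions none passed, and 0 had an unadjusted p below 0.05. The 5 that rose were already methylated in sham_IR. Hormad2, which encodes a protein of the meiotic chromosome axis, was at 67.4% in IR_1month (95% exact binomial interval 65.0 to 69.74) and 55.42% in sham_IR (52.11 to 58.69). All 11 of its positions were higher, and the other libraries were at 58.19% to 63.79%. IR_1month was thus the highest and sham_IR the lowest of the 8. Against sham_UUO the difference was 6.18 points (adjusted p = 0.0548, Fisher's exact test).

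Ddx4, which encodes the germ cell RNA helicase also called Vasa, was at 76.65% in IR_1month, 68.18% in sham_IR and 68.09% in sham_UUO, and at 74.82% to 79.6% in the other 5 libraries. Both shams thus lay below all injured kidneys. The difference was 8.47 points (adjusted p = 0.00842, Fisher's exact test), with 16 of 29 positions higher, and 8.73 points against sham_UUO. 4933428G20Rik was at 44.95% in IR_1month, 35.08% in sham_IR and 30.39% in sham_UUO, with 27 of 30 positions higher. At its inner positions the levels were 38.77%, 24.18% and 17.22%, and 36.9% in IR_1week. The UUO libraries were higher still, at 49.42% and 47.13%, and the UUO_5AZA libraries lay between sham_IR and IR_1month, at 25.95% and 32.36%. Gm16617, a predicted gene, was at 63.93% in IR_1month and 49.13% in sham_IR, with 46.98% in IR_1week and 54.09% in sham_UUO. The 2 ischemia libraries were thus on opposite sides of sham_IR. IR_1week lay within the exact binomial interval of sham_IR, 44.49 to 53.79%, so a fall in IR_1week is not shown.

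The 3110070M22Rik promoter moved against the window that adjoins it. The promoter rose, with 70.15% in IR_1month and 62.94% in sham_IR (adjusted p = 5.79e-07, Fisher's exact test) and 24 of 26 positions higher. In sham_UUO it was at 60.35%, and the libraries of the UUO pair were at 69.38% and 54.49%, so libraries of 1 group differed by more than IR_1month and sham_IR. At inner positions the promoter was at 73.79% against 64.55%, while the window on the other side of the gene start was at 5.91% against 34.85%.

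The 6 promoters that fell were Cadps2, a factor of dense-core vesicle release, Nrip1, a corepressor of nuclear receptors, Ube2e1, a ubiquitin-conjugating enzyme, Denn2b, Gm52628 and 4930503B20Rik. Their levels were 9.12% to 18.74% in IR_1month and 13.59% to 31.46% in sham_IR, and the differences -12.72 to -4.27 points. At their inner positions the differences were -5.4 to 0.34 points, and none passed there. Nrip1 was 1.02 points higher than sham_UUO, so its direction turned with the control. Cadps2 was at -0.26 points against sham_UUO (adjusted p = 0.868, Fisher's exact test) and at 0.34 points inside fragments. Denn2b and 4930503B20Rik did not pass against sham_UUO, at -5.81 and -8.93 points. Ube2e1 and Gm52628 were lower than sham_UUO too and passed the test, at -8.31 and -5.32 points (adjusted p = 0.000166 and 0.00204, Fisher's exact test).

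With inner positions alone 63 of 7089 promoters passed, 0.889%, with 22 higher and 41 lower. Nearly all were below 10% in both libraries. The 41 lower ones were at 9.77% or less in each library, with differences of -6.57 to -1.03 points. Examples near 0 are Dicer1, the endonuclease of microRNA processing, at 1.31% against 0.19%, and Tdg, a DNA glycosylase of active demethylation, at 0.31% against 3.8%. Among the methylated ones Topaz1, a germ line gene, was at 80.83% against 65.69%. Ddx4 and Hormad2 missed the threshold there, at 9.26 and 11.65 points (adjusted p = 0.0118 and 0.0119, Fisher's exact test), and 3110070M22Rik and 4933428G20Rik passed. These examples were chosen after their values were seen. Against sham_UUO, with all positions, 234 of 7493 promoters passed, 3.12%, 203 of them lower in IR_1month.

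Promoters with an inner level of at least 10% in the UUO mean numbered 159. Their mean was 33.8% in IR_1month, 32.29% in sham_IR, 32.76% in sham_UUO and 33.41% in IR_1week, and 36.91% and 36.72% in UUO. The promoters were picked on the UUO libraries, so the UUO means tend to be high by that choice and show no effect of obstruction. IR_1month was above sham_IR in 102 of them and above sham_UUO in 78. For reference, among all 1000 bp windows over inner positions, IR_1month was above sham_IR in 54.4% and above sham_UUO in 33.1%. Those windows are not limited to promoters or to any level. In inner windows classed by the UUO mean at 10 to 30%, 30 to 70%, 70 to 90% and 90% or more, the shares differed. IR_1month was above sham_IR in 65.2%, 63.8%, 52.8% and 48.5% of them, and above sham_UUO in 50.9%, 52.5%, 50.4% and 48.2%. The counts of the 159 promoters were near the shares of windows at 10 to 70%, so they do not set promoters apart.

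**Figure D5:**
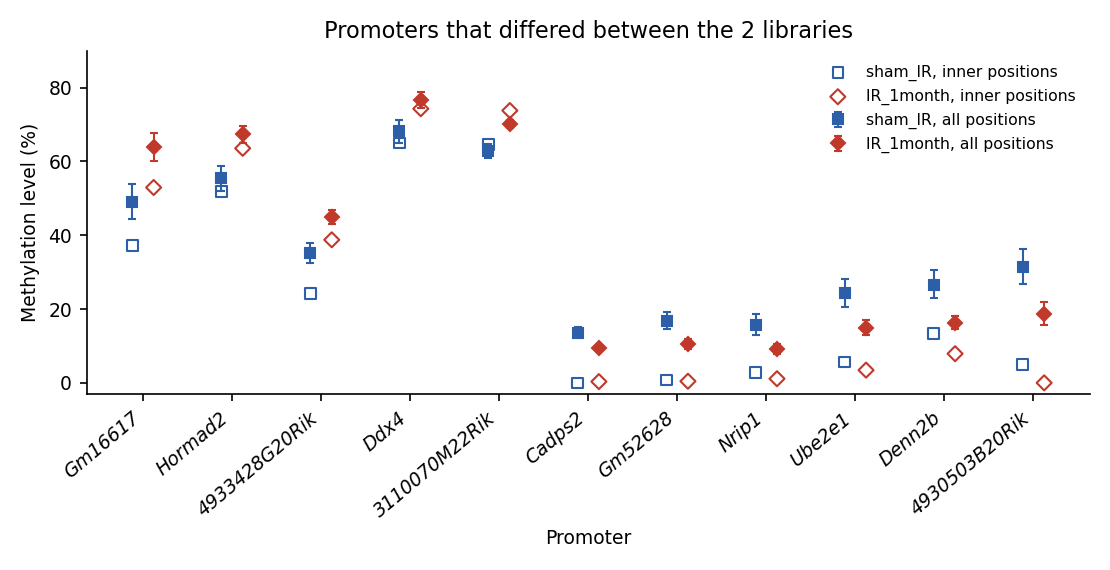
Methylation level in percent of the 11 promoters that passed the test, in IR_1month (red) and sham_IR (blue), over all positions (filled, with 95% exact binomial intervals) and inner positions (open). The 5 promoters on the left were methylated in both libraries, and the 6 on the right were at 13.3% or less inside fragments.

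Gene lists for fibrosis, tubule injury, proximal tubule, kidney and leukocytes were mostly out of reach of the placement. Of 20 fibrosis and matrix genes 4 were located, and none passed. The intermediate filament gene Vim was at 22.15% in IR_1month and 22.04% in sham_IR, Tgfb1, which encodes a profibrotic cytokine, at 13.26% and 11.86%, and the collagen genes Col4a1 and Col4a2 at 12.4% and 11.58% and at 14.67% and 15.2%. Their inner levels were at most 1.2% in both libraries. Lrp2, the endocytic receptor megalin, was the 1 located of 10 proximal tubule genes, at 16.81% and 14.8%, and Pax2, a transcription factor of kidney development, the 1 of 8 kidney genes, with 2 promoters at 15.09% against 16.93% and 15.85% against 15.58%. None of the 7 leukocyte genes and none of the 8 tubule injury genes was located. The median difference was 0.46 points over the 4 fibrosis promoters and -0.28 points over all 7532. The 4 ran from -0.53 to 1.41 points, within the -17.43 to 16.64 of all promoters. The Col4a1 and Col4a2 promoters overlap, so they are not separate measurements, and no shift of the list is shown.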

How the data were processed

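The deposited tables give, per CpG and library, a count of reads and a count of methylated reads made by the authors, not normalized, and a deposited fraction that equals their ratio. Bowtie and mm9 are named per the submitters' processing notes, and the methylation caller is not given in the sources used here. Groups come from the titles. Levels, windows, Fisher's exact tests and exact binomial 95% intervals were computed with Python 3.11.15, numpy 2.4.6, pandas 2.3.3 and scipy 1.17.1, and the models with limma 3.58.1 and edgeR 4.0.16 in R 4.3.3. Intervals cover counting error only, since PCR copies are not told apart. A position was inner where the depth summed over 8 libraries changed by at most 10% to both neighbouring CpG positions within 250 bp that held 40 reads or more. The members and lists were chosen with earlier results of these data known.

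Named windows are the 10 largest rises and 10 largest falls with the same direction against sham_UUO, and up to 5 of each among windows with at least 10 positions. The promoter comparison was added after the files had been seen, and departs from a plan that named genes only with an mm9 annotation. A promoter was placed where at least 8 CpG, with a run of 5 equal gaps, matched at 1 place alone and no other position lay within. Of 7777 such placements 10 were on another chromosome than RefSeq gives, and those and the ones out of gene order were dropped. Looser settings, also tried, gave 40 to 603 wrong chromosomes and were set aside for that reason. The quasi-binomial model was first fitted with an offset of 0.5 methylated reads and was replaced, once its count had been seen, by a fit without one, which is how an earlier analysis of these data had been run. The tests were tried on simulated data. Alternatives were other minimums, windows, position sets, controls and tests. Loci that the title names were not analysed here.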

Additional observations from a re-analysis of the deposited data

Results flagged for a closer look

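The window on chromosome 5 from 150495001 had IR_1month and IR_1week on opposite sides of sham_IR. IR_1month was 32.21 points above it, and IR_1week differed from it by -5.92 points. At 36.36% on 66 reads, IR_1week lay within the 95% exact binomial interval of sham_IR, 33.42 to 51.51%, so a move at 1 week is not shown. The difference between the times was not tested, since each is 1 library.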

How the results depend on the processing

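No paired analysis was possible because IR_1month and sham_IR hold 1 library each. The mean difference of 0.01 points was 0.03 with 20 reads, 0.32 with edges left out, -0.94 with sham_UUO as control, -0.46 with the mean of both shams and -2.4 with reads pooled over positions. The class differences of -0.22, -0.29, 0.95, 0.13 and -0.28 points, from the lowest class up and over all positions, classed by sham_UUO, were 0.18, 2.11, 2.89, 0.32 and -0.16 with edges left out, where classes hold other windows. Classed by the UUO mean, the upper 4 were -0.38, 0.41, 0.33 and -0.14, and with sham_UUO as control also all 5 were -1.2, -1.62, -1.68, -0.99 and -0.43. Windows with 20 or more positions differed by -0.3 points, and by 0.11 with edges left out.

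The 50 of 112774 windows became 113 at 20 points, 21 at 30 points and 0 with reads divided by positions, all of 112774. Other settings also changed the number tested. With 5 positions 25 of 58124 windows passed, with 10 positions 2 of 23769, and with 10 reads in all 8 libraries 33 of 91942. With sham_UUO 81 of 106984 passed (9 of them among the 50), and with both shams pooled 23 of 105514 (12 among the 50). Of 91942 windows the quasi-binomial model called 0 and edgeR 153 (22 among the 50). The quasi-binomial model with the offset, an alternative added after seeing the data, called 7 of 91942. Other settings gave 37 to 68, among them 37 with positions weighted equally (35 among the 50), added after seeing the data. None of the 21 named windows reversed, but they were chosen for their direction against sham_UUO, so this says nothing for that control. Of the 21, the call was lost by 14 with sham_UUO (the smallest difference was 1.68 points), 11 with pooled shams, 7 with thinned reads, 6 with positions weighted equally and 21 with reads divided by positions, and of 16 with a value by 16 in the quasi-binomial model and 4 in edgeR. At single positions, where 71 of 1147288 had passed, 22 of 459817 did with edges left out and 43 of 687471 for edges alone. With sham_UUO 681 of 1087146 passed. The 11 of 7532 promoters became 63 of 7089 with edges left out, 234 of 7493 with sham_UUO and 0 with reads divided by positions. The alternatives for single positions, for promoters and for windows by their number of positions were chosen after seeing the data. The cause of these changes was not tested, beyond the fewer reads or positions a setting leaves by its construction.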
